A study of Homo sapiens with 2 samples.

Results

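The cytosolic ribosomal protein genes encode the proteins of the small and the large subunit of the ribosome that translates nuclear-encoded mRNA. Members were taken by name from the deposited gene table: RPL or RPS followed by a number, with an optional A, L, X or Y, together with RPLP0, RPLP1, RPLP2 and RPSA. Pseudogenes and the RPS6K kinases were left out. Of 32742 genes in the table, 82 matched the rule and 79 had at least 50 UMIs over both libraries, 33 of them for the small and 46 for the large subunit. The remaining matches were RPL39L with 2 and 1 UMIs in the untreated-labelled and treated-labelled libraries, RPL10L with 0 and 2, and RPL3L with 8 and 7. These are copies of RPL39, RPL10 and RPL3 with expression known mainly from testis or muscle.

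The cells were WaGa, an established Merkel cell carcinoma line that grows in suspension. One group had no treatment, with no word in the labels on a solvent control. The other was treated with domatinostat, a histone deacetylase inhibitor dissolved in DMSO, and the labels give neither dose nor time. Each group was 1 library of droplet-based single-cell RNA-seq, which counts unique molecular identifiers (UMIs), one for each captured transcript molecule, near transcript 3′ ends.

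With 1 library per group, nothing separates the treatment from any other difference between the libraries. No test between conditions was made. Intervals are exact 95% intervals that cover counting error only. A cell's group was read from the treatment word in its name, so the libraries are called untreated-labelled and treated-labelled, and pairs of values are given in that order. CDKN1A, a well-known target induced by inhibition of histone deacetylases, stood at 97.9 counts per 1000000 UMIs (CPM) in the untreated-labelled library and at 39.4 CPM in the treated-labelled library. The directions below follow the labels.

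Ribosomal proteins, apart from some of the stalk, are needed in equal numbers, and most join ribosomal RNA in the nucleolus. Their mRNAs begin with a run of pyrimidines, the terminal oligopyrimidine (TOP) tract, through which growth signalling by mTOR and the binding protein LARP1 controls their translation and stability. In proliferating cells they are among the most abundant mRNAs.

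The TOP tract was searched in RefSeq promoters of build GRCh38.p14 as an unbroken run of C and T that begins with C, on the gene's strand, in a window of 30 bases from 10 before to 20 after the annotated start. In all, 63 members matched the promoter table, with 78 windows. A run of at least 8 bases lay in 53 of the 78 windows (67.95%) and in 9.694% of all 35116 promoters. For a run of at least 5 bases the shares were 83.33% and 38.37%. The windows below show, with the longest run in capitals, the 8 members at least 25% higher in the treated-labelled library, then RPL41 just outside that threshold, and then 4 of the members lowest there.
RPL36A, chrX:101391001-101391030, plus strand: ctcgcggtttCTTTCTTTCCgcgccgatag
RPL17, chr18:49492446-49492475, minus strand: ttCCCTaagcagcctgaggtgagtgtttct
RPS21, chr20:62387093-62387122, plus strand: ctagctgCTTCCTTTCTCTCTCgcgcgcgg
RPS10, chr6:34426050-34426079, minus strand: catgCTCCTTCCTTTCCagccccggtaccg
RPS27, chr1:153990752-153990781, plus strand: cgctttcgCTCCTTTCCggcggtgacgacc
RPS28, chr19:8321486-8321515, plus strand: gaagcacgtgaCTCCTCTCCgccagaccgc
RPL38, chr17:74203668-74203697, plus strand: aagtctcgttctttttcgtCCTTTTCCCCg
RPS26, chr12:56041908-56041937, plus strand: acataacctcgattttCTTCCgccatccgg
RPL41, chr12:56116623-56116652, plus strand: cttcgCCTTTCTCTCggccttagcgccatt
RPL29, chr3:51995876-51995905, minus strand: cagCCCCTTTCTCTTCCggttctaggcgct
RPL9, chr4:39458903-39458932, minus strand: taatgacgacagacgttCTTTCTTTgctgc
RPSA, chr3:39406710-39406739, plus strand: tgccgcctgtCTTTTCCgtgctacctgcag
RPS7, chr2:3575250-3575279, plus strand: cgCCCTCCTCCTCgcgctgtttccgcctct
Long runs stood on both sides, with 15 bases in RPS21 and 14 in RPL29. Among the higher members the run had 5 bases in RPS26 and 4 in RPL17. Taking only the first listed window of each member, 46 had a run of at least 8 bases and 17 a shorter one. Their median log2 ratios, labelled treated over labelled untreated, were 0.10 and 0.02. Some members with several windows, such as RPL11 with runs of 5 and 12 bases, could fall in either group. These medians therefore depend on the window used, and their difference was not tested. A run in these letters is a description of the window and not a measured start site.

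The library labelled untreated held 4137 cells with a median of 11125 UMIs per cell, and the treated-labelled library held 6679 cells with a median of 8578. In all, 48 cell barcodes occurred in both. Mitochondrially encoded transcripts took 5.09% and 4.74% of UMIs, and MALAT1, a nuclear noncoding RNA, 2.79% and 2.50%. All 12 Merkel cell carcinoma markers had at least 50 UMIs. Of the markers of other cell types, 1 of 5 for T cells and 3 of 5 for keratinocytes reached that count. No doublet caller was run.

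Ribosomal protein transcripts made up 20.2% of UMIs in the untreated-labelled library (9220382 UMIs) and 21.1% in the treated-labelled library (12699648 UMIs). The ratio of the shares was 1.04 (interval 1.04226 to 1.04403). The subunits had like ratios. The small-subunit members went from 8.92% to 9.29% (ratio 1.04096, interval 1.03963 to 1.04229) and the large-subunit members from 11.3% to 11.8% (1.04488, 1.04369 to 1.04606). The small subunit gave 44.1% and 44.0% of all member UMIs. In cells of 7000 to 12000 UMIs the direction turned, with shares of 21.228% and 21.167% and a ratio of 0.99711, so the sign of the small difference in share rests on which cells are compared.

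Among the members the libraries did not differ by a common factor. Among members whose interval did not hold 1, ratios ran from 0.850 to 1.78. The interval lay above 1 for 48 of 79 members (60.8%) and below 1 for 26 (32.9%), and it held 1 for 5. Of all 13958 genes with at least 50 UMIs, 28.5% lay above and 34.7% below. Members are deeply counted, so their intervals are narrow: of the 78 other nuclear genes at 1000 CPM or more, 42.3% lay above 1 and 55.1% below. The members' median log2 ratio was 0.07 (0.06 for the small and 0.09 for the large subunit), against -0.02 for all genes with at least 50 UMIs and -0.03 for those 78 genes. By size, 8 members (10.1%) were higher by at least 25% in the treated-labelled library, and 0 were lower by at least 20%, the same fold downward. The corresponding shares of all genes with at least 50 UMIs were 13.5% and 24.6%, and of the 1545 genes at 100 CPM or more they were 8.16% and 6.6%. On the higher side, the share of members past this fold thus lay near that of abundant genes. Past 1.5-fold were 2 members (2.53%) on the higher side and 0 on the lower, against 3.77% and 14.9% of genes with at least 50 UMIs.

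**Figure D1:**
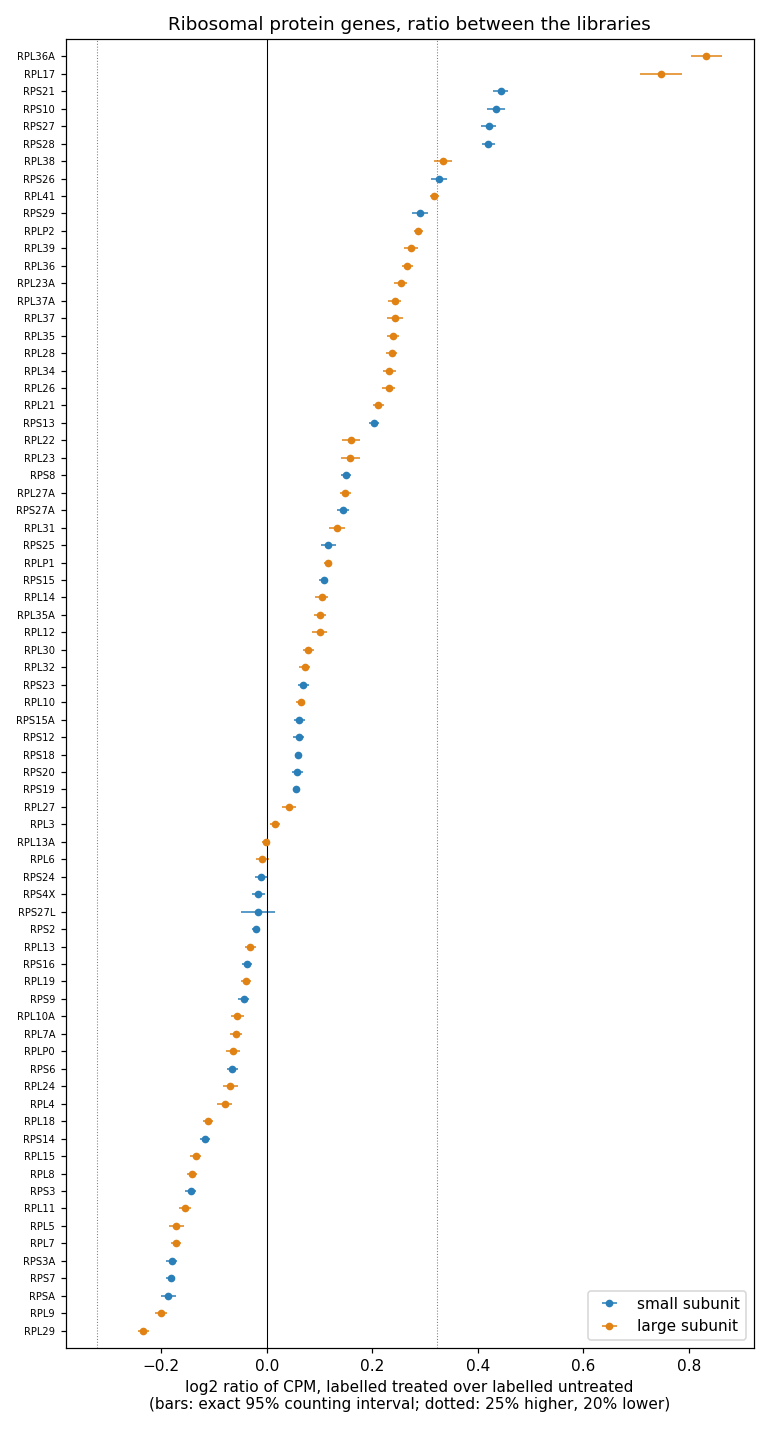
Log2 ratio of CPM, labelled treated over labelled untreated, for 74 of the 79 members, leaving out 5 that are not reported singly (points; bars are exact 95% counting intervals; dotted lines mark 25% higher and 20% lower; colour gives the subunit). RPL36A and RPL17 stand alone at the top, 8 members lie past the upper dotted line and none past the lower one.

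Of the 8 members higher by at least 25%, 5 belong to the small subunit. RPS21, a protein needed for the maturation of the small subunit's RNA, stood at 1243 CPM in the untreated-labelled library and 1691 in the treated-labelled library (ratio 1.36, interval 1.346 to 1.374). RPS27, a zinc-finger protein of the small subunit, stood at 1438 and 1924 CPM (1.34). RPS28, which lies near the site where mRNA leaves the small subunit, stood at 2073 and 2774 CPM (1.34). These encode some of the shortest ribosomal proteins, with coding sequences of 249, 252 and 207 nt. RPS10, a protein of the head of the small subunit, stood at 878 and 1186 CPM (1.35). RPS26, which contacts mRNA upstream of the start codon, stood at 1241 and 1556 CPM (1.255, interval 1.241 to 1.268) and was the member just inside the threshold.

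The other 3 belong to the large subunit and include the pair with the highest ratios of all. RPL36A, which lies near the exit site for tRNA, stood at 279 CPM in the untreated-labelled library and 497 in the treated-labelled library (ratio 1.78, interval 1.745 to 1.819). RPL17, which lines the tunnel through which the new peptide leaves, stood at 155 and 261 CPM (1.68, interval 1.632 to 1.726). RPL38, a small protein known for its part in the translation of Hox mRNAs in mouse embryos, stood at 979 and 1235 CPM (1.26). RPL36A and RPL17 were also among the least abundant members. Just outside the threshold came RPL41, the shortest ribosomal protein, at 4437 and 5530 CPM (1.246, interval 1.239 to 1.253).

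RPL36A, RPL17 and RPS10 share a feature of the gene table. Each has a second row for a transcript that reads through into the next gene: RPL36A-HNRNPH2 with 1 and 0 UMIs, RPL17-C18orf32 with 92 and 81, and RPS10-NUDT3 with 7 and 12. No other member has such a row, and these genes ranked 1, 2 and 4 by ratio. Reads shared by overlapping gene models can be split or dropped in counting, so their levels are uncertain. Outside the members, 113 genes with a read-through row and at least 50 UMIs had a median log2 ratio of 0.05. Of these, 23 were at least 25% higher and 8 at least 20% lower. Leaving out RPL36A, RPL17 and RPS10 gave a ratio of the ribosomal protein share of 1.04029, and 5 members at least 25% higher remained. What the read-through rows have to do with the ratios was not tested.

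Lower in the treated-labelled library were mostly proteins of longer coding sequence. RPL29, a large-subunit protein also known for binding heparin, stood at 3047 and 2591 CPM (ratio 0.850, interval 0.8442 to 0.8565). RPL9, at the base of the large subunit's stalk, stood at 2403 and 2090 CPM (0.870), and RPSA, a small-subunit protein also known as a laminin receptor precursor, at 1514 and 1330 CPM (0.879). RPS7, RPS3A and RPL7 stood at 0.881, 0.883 and 0.887. RPL5 and RPL11, which form a particle with a small ribosomal RNA and bind MDM2 when ribosome assembly is disturbed, stood at 1673 and 1485 CPM (0.888) and at 2893 and 2598 CPM (0.898). RPS3, at the entry of the mRNA channel, stood at 3065 and 2774 CPM (0.905). In all, 11 members (13.9%) were at least 1.1-fold lower, a size reached by 22.8% of genes at 100 CPM or more and by 38.0% of those with at least 50 UMIs. At least 1.1-fold higher were 28 members (35.4%), against 29.1% and 30.6%.

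The stalk proteins, which recruit the translation factors that hydrolyse GTP, did not share a direction. RPLP2 stood at 4310 and 5259 CPM (ratio 1.22) and RPLP1 at 4499 and 4875 CPM (1.08), whereas RPLP0, the longer protein that anchors them, stood at 1917 and 1833 CPM (0.957). RPS6, the target of the S6 kinases, stood at 2825 and 2699 CPM (0.956). RPS27A, made as a fusion to ubiquitin, stood at 2596 and 2869 CPM (1.11). RPS14, known from the bone marrow disease with loss on the long arm of chromosome 5, stood at 3192 and 2942 CPM (0.922). RPS19, the gene most often mutated in Diamond-Blackfan anaemia, stood at 6162 and 6406 CPM (1.04).

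Levels spanned a wide range between members. The counts come from transcript ends and were not divided by length. RPS18, RPS19, RPS2 and RPL13A were among the most abundant in both libraries, from 5378 CPM for RPL13A to 6532 CPM for RPS18. RPL13A stood at 5387 and 5378 CPM, with an interval that held 1 (0.993 to 1.004). RPL3 (2931 and 2963 CPM, ratio 1.01), RPL10 (3875 and 4052 CPM, 1.05), RPS4X (1983 and 1961 CPM, 0.989) and RPL22 (1015 and 1134 CPM, 1.12) lay between the extremes.

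RPS27L, a close copy of RPS27 that is known as a p53 target, stood at 309 and 305 CPM (ratio 0.988, interval 0.967 to 1.010), while RPS27 was 1.34-fold higher in the treated-labelled library. The ratio of RPS27L was not near 1 in every phase: its log2 ratio was -0.34 in G1, 0.05 in S and 0.01 in G2/M. Of related genes outside the name rule, FAU, which encodes a ubiquitin-like protein fused to RPS30, stood at 1959 and 2153 CPM (1.099). GNB2L1 (RACK1), a scaffold on the small subunit, stood at 1922 and 1722 CPM (0.896). The copies RPL22L1, RPL7L1, RPL26L1 and RPL36AL had ratios of 1.07, 1.04, 1.07 and 1.01. RPL36AL thus lay near 1 although its parent RPL36A had the highest ratio of all members.

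The ratios were ordered by the length of the coding sequence. All 79 members had a coding length in GENCODE release 29, with a median of 453 nt. In the 10 members of at most 300 nt the median log2 ratio was 0.30, with 9 intervals above 1 and 0 below. It was 0.12 in the 16 members of 301 to 400 nt (15 above, 0 below) and 0.11 in the 23 of 401 to 500 nt (18 above, 4 below). In the 16 members of 501 to 700 nt it was -0.04 (5 above, 10 below), and in the 14 longer ones -0.07 (1 above, 12 below). Across the 79 genes Spearman's rho was -0.67, with -0.53 in the small and -0.73 in the large subunit. Genes share their libraries and are not independent replicates, so this is a description.

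The order was not shared by other abundant genes to that extent. Over the 1093 genes outside the members at 100 CPM or more with coding lengths in the members' range, rho was -0.08, although the 117 of at most 300 nt had a median log2 ratio of 0.10. For 77 mitochondrial ribosomal protein genes rho was -0.31. Within the members, the length of the whole transcript (rho -0.24) and the mean CPM (-0.27) followed the ratio less closely. Transcript length was that of a single annotated transcript per gene, which need not be the one expressed. It was 7686 nt for RPL37, with a coding length of 291 nt, and 6434 nt for RPS27L, with 252 nt. The weaker rho for transcript length therefore does not set coding length apart from mRNA length. The comparison with length was added after the values were seen.

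**Figure D2:**
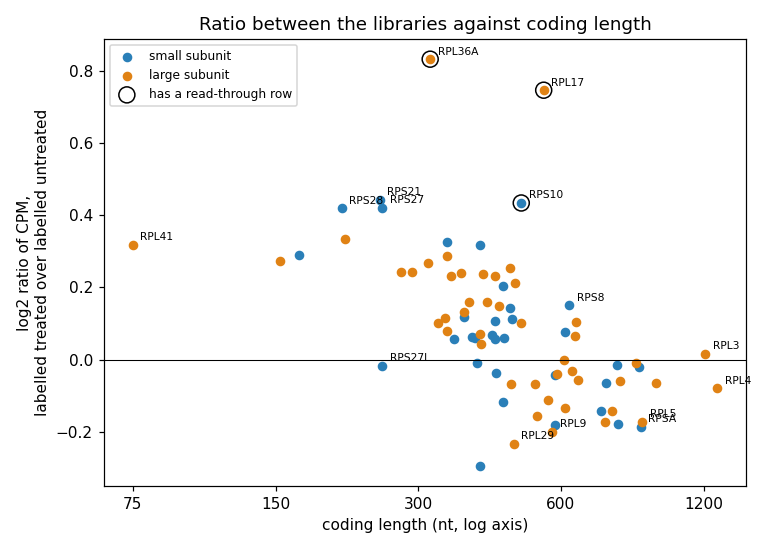
Log2 ratio of CPM, labelled treated over labelled untreated, against coding length in nt on a log axis, 1 point per member, coloured by subunit, with rings around the 3 members that have a read-through row. Members of at most 300 nt lie above 0 except RPS27L, and most members over 700 nt lie below 0, while the ringed genes lie far above the others of their length.

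Split at the median length, the 40 members of at most 453 nt went from 8.89% to 9.95% of UMIs (ratio 1.12, interval 1.11773 to 1.12055). The 39 longer ones went from 11.3% to 11.2% (0.984, 0.982443 to 0.9847). The short members thus made up 43.9% of ribosomal protein UMIs in the untreated-labelled library and 47.1% in the treated-labelled library. Unlike the share of ribosomal protein transcripts, this makeup separated the libraries at every depth. In 9 bins of UMIs per cell, the short members' part was at most 44.203% in the untreated-labelled library and at least 46.677% in the treated-labelled library. The split was made after the ratios were seen and the bins divide the same cells, so they are not independent support for it.

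The share of a cell's UMIs from ribosomal protein genes differed widely between cells of the same library. It ran from 10.97% to 35.28% in the untreated-labelled library and from 12.58% to 32.35% in the treated-labelled library. The SD over cells was 2.84 and 2.46 percentage points, against an SD of 0.423 and 0.473 points computed for counting alone. The share tended to be lower in deeper cells. Pearson's r with the log of the cell's UMIs was -0.36 over 4137 cells and -0.29 over 6679 cells. The same UMIs enter both measures, and the relation was not even: over the bins from 12000 UMIs up, the share in the treated-labelled library went from 19.98% to 20.88%. With MALAT1's share r was -0.30 and -0.32, and with the mitochondrially encoded share -0.11 and -0.09.

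**Figure D3:**
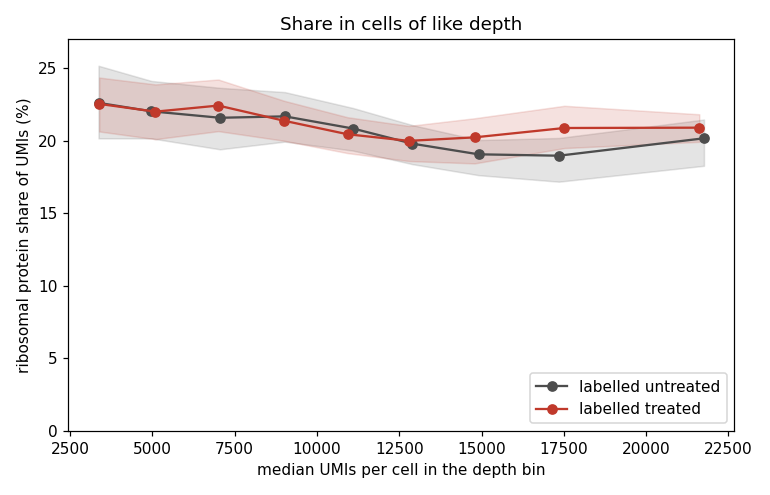
Ribosomal protein share of UMIs (%) in cells grouped by UMIs per cell, plotted at each bin's median depth, for both libraries (points: share of the bin's summed UMIs; bands: quartiles over cells). The lines cross, and both are lower in the bins of middle and high depth than in the shallowest bin: the treated-labelled library is higher in 5 of 9 bins, lower in 2, and overlaps in its interval in 2.

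At like depth the libraries crossed. Between 14000 and 15999 UMIs the share was 19.0% in the untreated-labelled library and 20.2% in the treated-labelled library, and between 10000 and 11999 UMIs it was 20.8% and 20.4%. Of the 9 bins, 5 were higher and 2 lower in the treated-labelled library with intervals apart, and in 2 the intervals overlapped.

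Cells called in different phases of the cell cycle differed more than the libraries did. Phases were called from 41 S and 54 G2/M genes, none of them a ribosomal protein gene, after each cell was thinned to 4351 UMIs. This left out 245 cells labelled untreated and 667 labelled treated. In the untreated-labelled library the ribosomal protein share was 23.6% in 421 cells called G1, 20.5% in 2202 called S and 19.0% in 1269 called G2/M. In the treated-labelled library it was 24.3% in 384 G1 cells, 21.7% in 2945 S cells and 20.2% in 2683 G2/M cells. G2/M over G1 gave 0.80537 and 0.82939. Depth moved with phase: the median UMIs of G1, S and G2/M cells were 7978, 11019 and 13685 in the untreated-labelled library and 6954, 8504 and 10417 in the treated-labelled library. MALAT1's share also moved, from 2.17% to 3.002% and from 1.68% to 2.81% between G1 and G2/M. The part of depth and of RNA free in the droplets in these differences was not tested.

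**Figure D4:**
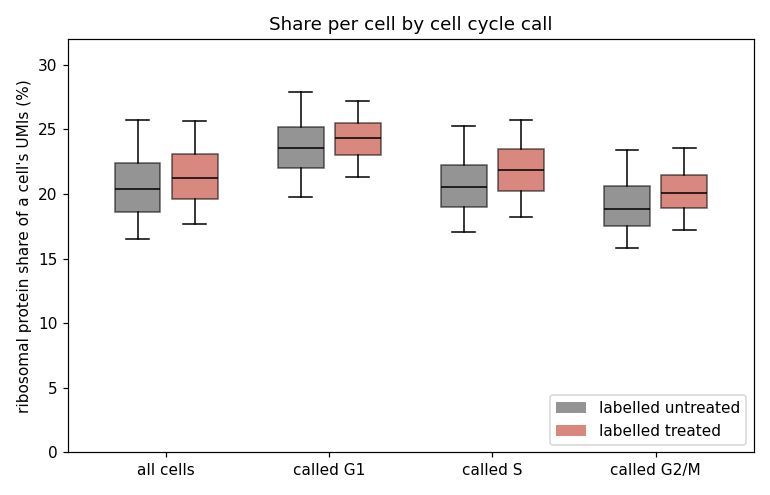
Ribosomal protein share of each cell's UMIs (%), in all cells and in those called G1, S or G2/M, for both libraries (line: median; box: quartiles; whiskers: 5th and 95th percentiles over cells). Medians fall from 23.5% in G1 to 18.8% in G2/M in the untreated-labelled library and from 24.3% to 20.1% in the treated-labelled library, with wide overlap between cells.

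Nearly all members stood lower in cells called G2/M than in those called G1. The interval of G2/M over G1 lay below 1 for 77 members (97.5%) in the untreated-labelled library and for 76 (96.2%) in the treated-labelled library, and above 1 for 0 in both. Of genes at 100 CPM or more, 34.2% and 39.7% lay below 1, and 39.9% and 31.0% above. The median log2 ratios were -0.30 and -0.28. At least 20% lower in G2/M were 31 of 78 members (39.7%) in the untreated-labelled library, where 1 member had under 50 UMIs in these cells, and 19 of 79 (24.1%) in the treated-labelled library. This held for 21.8% and 19.3% of genes with at least 50 UMIs, and for 13.5% and 13.6% of genes at 100 CPM or more. In the other direction 1 member (1.27%) was at least 25% higher, in the treated-labelled library, with an interval that held 1. The corresponding shares were 26.1% and 26.9% of genes with at least 50 UMIs, and 21.2% and 15.1% of genes at 100 CPM or more.

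The size of the difference varied between members. Among members whose interval did not hold 1, it was largest for RPL22, a large-subunit protein that also binds small viral RNAs. RPL22 stood at 1287 CPM in G1 and 875 in G2/M of the untreated-labelled library (ratio 0.680), and at 1445 and 1010 CPM in the treated-labelled library (0.699). RPLP2 stood at 0.704 in the untreated-labelled library and 0.813 in the treated-labelled library, and RPS15, of the head of the small subunit, at 0.704 and 0.8003. RPL5 stood at 0.819 and 0.725. RPL22 thus had similar ratios in both libraries, while RPLP2, RPS15 and RPL5 did not. RPS23, of the decoding centre, stood closer to 1, at 0.9376 and 0.9305. RPL12, RPS3 and RPL10A stood at 0.940, 0.931 and 0.926 in the untreated-labelled library. RPL41 stood at 0.877 in that library and at 0.995 in the treated-labelled library (5622 and 5592 CPM, interval 0.979 to 1.011). Relative to the members as a whole, 29 members were lower in G2/M in both libraries, 30 higher in both, and 20 had opposite signs.

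Within each phase the difference between the libraries kept the order described above. The ratio of the ribosomal protein share, labelled treated over labelled untreated, was 1.0298 in G1, 1.057 in S and 1.0605 in G2/M. The log2 ratio of 63 of 79 members had the same sign in all 3 phases, 42 above and 21 below 0. The same count was not made for other genes, and the phases are parts of the same libraries. It is therefore not a trait shown to be particular to the members. Spearman's rho with coding length was -0.51 in G1, -0.65 in S and -0.68 in G2/M. RPL36A had log2 ratios of 0.84, 0.80 and 0.87, RPS21 of 0.39, 0.44 and 0.47, and RPL29 of -0.32, -0.20 and -0.22. The difference in RPL41 was larger in G2/M (0.46) than in G1 (0.28) or S (0.23). At least 25% higher were 7 (8.86%), 10 (12.7%) and 13 (16.5%) members in G1, S and G2/M, against 15.4%, 10.6% and 12.2% of genes at 100 CPM or more.

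Cells were also clustered within each library without ribosomal protein and mitochondrially encoded genes, which gave 7 clusters in the untreated-labelled library and 6 in the treated-labelled library. The clusters were not given names. In the untreated-labelled library, the ribosomal protein share ran from 18.3% in cluster 2, led by the mitotic genes CCNB1 and CDC20, to 23.3% in cluster 5, led by HIST1H2BD and SOX2. In the treated-labelled library it ran from 19.7% in cluster 1, led by histone genes, to 23.4% in cluster 0, led by SOX3 and CLDN5. The highest share over the lowest was 1.2685 and 1.1889. The clusters with the highest shares had shallow cells, with median UMIs of 7229 and 6984, and cluster 5 also had a low MALAT1 share of 1.00%. These values moved together, and their part in the shares was not tested. Cluster 5 of the treated-labelled library, led by CTNNB1, was the shallowest at 4588 UMIs and had a share of 21.2%, so in that library the shallowest cluster did not have the highest share.

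**Figure D5:**
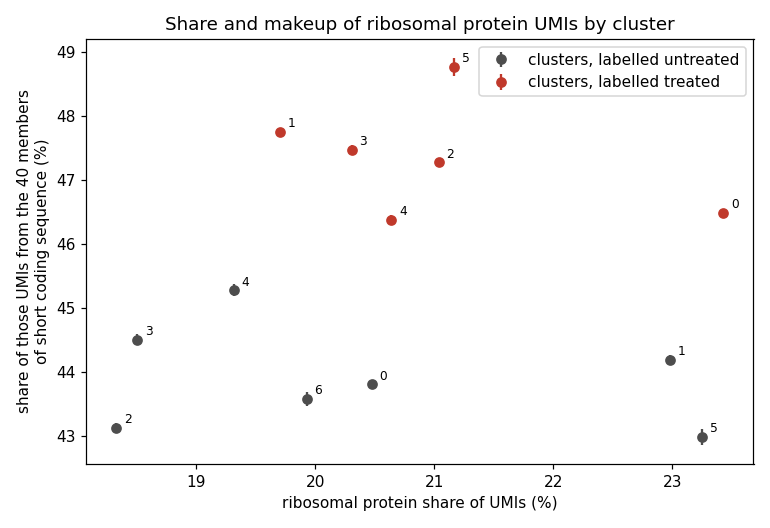
For each cluster of each library, the part of ribosomal protein UMIs from the 40 members of short coding sequence (%, vertical) against the ribosomal protein share of all UMIs (%, horizontal); bars are 95% counting intervals and numbers name the clusters. The libraries overlap from left to right, while all 6 clusters labelled treated (46.4% to 48.8%) lie above all 7 labelled untreated (43.0% to 45.3%).

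The makeup by length was thus apart between the libraries in every cluster, whereas the share was not. In the phases the short members gave 44.0%, 44.1% and 43.6% of ribosomal protein UMIs in G1, S and G2/M of the untreated-labelled library, and 46.5%, 47.0% and 47.4% in the treated-labelled library. The split at the median length was itself made after the ratios were seen, so the direction is a description of these libraries.

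Other lists of the translation machinery are given as counts, and their difference from the members was not tested. Of 22 translation factors with TOP mRNAs and at least 50 UMIs, 9 had an interval above 1 and 11 below, with a median log2 ratio of -0.03. EIF3H, a subunit of an initiation factor, stood at 0.814 and NPM1, a nucleolar chaperone, at 0.828, while EEF1D stood at 1.13. EEF1G stood at 1.60 but at only 4.54 and 7.25 CPM. Of 45 ribosome biogenesis genes, 13 lay above and 11 below (median 0.03), with the methyltransferase FBL at 0.863 and the polymerase subunit POLR1D at 0.854, and UBTF, which activates ribosomal DNA, at 1.44. Of 76 mitochondrial ribosomal proteins, 27 lay above and 22 below (median -0.01), from MRPL40 at 0.611 to MRPS24 at 2.31, which also has a read-through row. MRPS24 stood at only 6.47 and 14.9 CPM, whereas MRPL40 stood at 174 and 106 CPM. Of 12 genes listed as snoRNA hosts, 7 were in the table. Of these 7, 3 lay above and 0 below (median 0.13), with SNHG7 and SNHG8 at 1.18. The 7 include RPPH1, which is the RNA of RNase P and not a snoRNA host, and its interval held 1. By comparison 48 of 79 members lay above 1 and 26 below. Of all genes with at least 50 UMIs 28.5% lay above and 34.7% below, and of genes at 100 CPM or more 45.4% and 40.8%. The lists differ in depth, and deeper genes have narrower intervals, so these counts are not directly comparable.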

How the data were processed

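WaGa cells were measured in 1 library without treatment and 1 library with domatinostat. Cell Ranger, Seurat and the build hg19 are named, without versions, per the submitters' processing notes. The annotation used for counting and the cell filters are not given in the sources used here. In the single table that the authors deposited, each value is the natural log of 1 plus a gene's UMIs scaled to 10000 per cell. The smallest value above 0 in each cell was taken as 1 UMI, and 100% of values were then whole multiples within a relative tolerance of 1e-06. The recovered UMIs were analysed as counts. Cells were assigned by the word at the end of their names, and 0 columns of per-sample values were left unused.

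UMIs were summed per gene and library (45562976 and 60160108 UMIs in all) and divided by the library total to give CPM. Ratios and shares have exact Clopper-Pearson 95% intervals, which cover counting error only. No test between conditions was possible with 1 library each. Phases and Leiden clusters were computed with scanpy 1.11.5 and leidenalg 0.10.2, with Python 3.11.15, numpy 2.4.6, scipy 1.17.1 and pandas 2.3.3. Barcodes found in both libraries were kept, and no doublet caller was run. The ratios and their intervals were tested on simulated gene totals with known fold changes and counting error only. The other steps were not tested in this way. Coding lengths are from GENCODE release 29 and start windows from RefSeq (GRCh38.p14), matched by symbol; no coordinates of the deposited table's build were used.

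The members and lists were chosen with earlier results of these data known. Named were the 6 most and 6 least abundant members, the 8 members at either end by ratio, ranked on the bound of the interval closest to 1, and per library the 4 members with the largest shift each way between G2/M and G1 within the members. Others were chosen by name, with up to 2 genes at each end of the other lists. Some genes selected this way are not reported here. The comparisons with coding length, read-through rows and start tracts, the split into short and long members, and the ratios within phases were chosen after seeing the data. Alternatives changed the total, the weighting of cells, the cells used, the fold and UMI minimum, the member list, the thinning, the phase scoring and the cluster settings.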

Additional observations from a re-analysis of the deposited data

How the results depend on the processing

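With 1 library per group, leaving out a library was not possible, and no spread between cultures was measured. No paired analysis was possible because each group had 1 library. A shift is compared with the counting interval, which is narrow at this depth, so small shifts exceed it. The cause was not tested.

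The ratio of the ribosomal protein share (1.0431) was 1.0393 on a total without mitochondrially encoded genes, 1.0371 with equal weight for each cell, 1.041 without the deepest 5% of cells, 1.0549 without the 20 most abundant members, 1.0403 without the 3 members with a read-through row, and 1.0298, 1.057 and 1.0605 in G1, S and G2/M. It reversed to 0.99711 in cells of 7000 to 12000 UMIs. In the same order without the changes of members, the small subunit (1.041) gave 1.0372, 1.036, 1.0382, 1.0322, 1.0531 and 1.0635, and 0.993 in those cells, a reversal. The large subunit (1.0449) gave 1.0411, 1.0379, 1.0431, 1.028, 1.0602 and 1.0582, and 1.0004 in those cells.

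The members' median log2 ratio (0.069) was 0.0571 with equal weight, 0.0063 in cells of 7000 to 12000 UMIs, 0.0849 on a total without ribosomal protein genes, and 0.0498, 0.0829 and 0.098 in G1, S and G2/M. Members at least 25% higher (8) numbered 13 in G2/M and 5 without members of uncertain counting, RPL17, RPL36A and RPS10 among them. At 1.1-fold and 1.5-fold there were 28 and 2. Members at least 20% lower (0) numbered 1 without the deepest cells, 1 in cells of 7000 to 12000 UMIs, 2 in G1 (RPL29 and RPS27L), 2 with a minimum of 1 UMI in each library, and 11 at 1.1-fold.

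In the library labelled untreated, G2/M over G1 (0.80537) was 0.79918 unthinned, 0.80864 without mitochondrially encoded genes and 0.81157 with equal weight. S over G1 (0.86847) was 0.86471 when the library was scored alone, and 0.86515, 0.87542 and 0.87788 under those settings. The highest over the lowest cluster (1.2685) was 1.3524 at a cluster resolution of 1.0, 1.293 with ribosomal protein genes kept and 1.2598 with equal weight. In the library labelled treated, G2/M over G1 (0.82939) was 0.84079 scored alone, 0.83359 without mitochondrially encoded genes and 0.83266 with equal weight. S over G1 (0.89141) was 0.89626 scored alone, 0.89379 unthinned and 0.90038 with equal weight. The cluster ratio (1.1889) was 1.184 at resolution 1.0 and 1.1948 with equal weight.

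For the 46 members that the naming rule selects, 254 of 460 values stayed within the counting interval and 206 moved beyond it. Some of the moved values changed sign, in either direction. The log2 ratio of RPS20 went from 0.058 to -0.026 in G1. That of RPS18 went from 0.060 to -0.022 in cells of 7000 to 12000 UMIs. RPLP0 went from -0.064 to 0.022 in G2/M, and RPS4X from -0.016 to 0.057 in G1.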
